A study of Mus musculus with 13 samples.

Results

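The genes that carry glucose through glycolysis to lactate, and the genes that cells switch on when oxygen is short, were followed in whole brains of mouse embryos with and without Meg3, a long non-coding RNA. The list held 37 genes: 18 glycolytic enzymes, 3 transporters of glucose or lactate, and 16 other targets of the low-oxygen response. A gene was taken as measured where a probe set of the array (a group of short probes for 1 transcript) was annotated to that gene alone, and the probe set with the highest mean signal over 13 arrays was used for it. This gave 34 genes of the 18194 that had such a probe set, namely 16 enzymes, the 3 transporters and 15 other targets. Each array held 1 whole brain at embryonic day 18.5, from 6 wild-type embryos or 7 embryos labelled Meg3 knock-out, which came from 5 litters and are stated to be biological replicates. Wild-type 1 and 2 and knock-out 2 were littermates in litter 219, wild-type 3 and knock-out 3 and 4 in litter 238, wild-type 4 and 5 and knock-out 5 and 6 in litter 250, and wild-type 6 and knock-out 7 in litter 262, while knock-out 1 was alone in litter 148. No treatment was given in the labels. The strain, the sex and the exact deletion are not described here, and the controls are named only as wild-type. Because each sample is a whole brain, fewer cells of a type and less RNA per cell cannot be told apart.

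Glycolysis splits glucose into pyruvate in the cytosol, and lactate dehydrogenase turns pyruvate into lactate when mitochondria do not burn it. When oxygen falls, the transcription factor HIF-1 is no longer degraded, binds a short DNA element near its target genes, and raises the transcription of glucose transporters, of most glycolytic enzymes, and of genes that limit mitochondrial use of pyruvate, recycle mitochondria or modify collagen and histones. The fetal brain lives at low oxygen tension and depends largely on glucose.

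The core of the HIF element is ACGTG or GCGTG, which reads CACGT or CACGC on the opposite strand. It was searched on both strands in the 250 bases before the annotated start of each gene, in RefSeq promoters of the mouse assembly GRCm38.p6. Of the 33 listed genes with such a window, 25 held at least 1 match (75.8%) and 17 held at least 2 (51.5%), beside 38.6% and 16.8% of the 27025 windows of all genes. Matches were found for 12 of 18 glycolytic enzymes (66.7%), both transporters with a window, and 11 of 13 other targets (84.6%). The windows of Hk1, Gpi1, Aldoa, Tpi1, Eno2, Pkm, Mxi1 and Vldlr held none of these letters. Slc2a3, Bnip3l, Ndrg1 and Bhlhe40 had no window in the promoter set used. The palindrome CACGTG counts as 2 overlapping matches and is also the E-box read by other factors. A match is a description of the letters and not a site shown to be bound. The genes were listed as glycolytic or low-oxygen induced, so a larger share than over all genes could follow from that choice. Each form of the core holds CG, and the windows were not matched for CG content. The windows of 4 genes are printed, each ending at the base before the start and with the matches in capitals. Ldha, Pfkfb3 and Ankrd37 had the smallest p between genotypes, and Bnip3 is the mitochondrial target with 5 matches.
Ldha (chr7:46845554-46845803, plus strand): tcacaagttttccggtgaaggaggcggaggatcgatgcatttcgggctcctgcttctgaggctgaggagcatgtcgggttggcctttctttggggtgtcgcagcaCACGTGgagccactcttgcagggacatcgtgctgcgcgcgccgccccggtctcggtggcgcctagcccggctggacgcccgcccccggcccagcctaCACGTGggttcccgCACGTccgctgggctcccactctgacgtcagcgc
Pfkfb3 (chr2:11553930-11554179, minus strand): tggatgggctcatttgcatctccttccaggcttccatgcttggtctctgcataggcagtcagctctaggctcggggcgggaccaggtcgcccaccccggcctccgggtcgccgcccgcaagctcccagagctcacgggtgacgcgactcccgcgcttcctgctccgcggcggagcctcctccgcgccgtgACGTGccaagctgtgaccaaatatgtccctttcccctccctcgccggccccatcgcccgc
Ankrd37 (chr8:45999851-46000100, minus strand): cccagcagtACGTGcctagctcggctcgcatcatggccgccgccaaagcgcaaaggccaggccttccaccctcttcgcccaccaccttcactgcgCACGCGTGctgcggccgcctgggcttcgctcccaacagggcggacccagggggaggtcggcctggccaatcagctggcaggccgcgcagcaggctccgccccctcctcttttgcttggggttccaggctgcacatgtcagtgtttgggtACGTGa
Bnip3 (chr7:138909507-138909756, minus strand): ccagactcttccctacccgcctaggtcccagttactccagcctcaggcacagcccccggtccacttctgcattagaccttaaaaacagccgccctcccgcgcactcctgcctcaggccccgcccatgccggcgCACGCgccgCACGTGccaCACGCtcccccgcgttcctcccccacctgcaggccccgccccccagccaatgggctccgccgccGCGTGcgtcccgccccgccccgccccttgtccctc
In the Ldha window the E-box palindrome stands 2 times, beginning 145 and 48 bases before the start. Pfkfb3 held a single match 60 bases before the start. Ankrd37 held 4 matches, the nearest 6 bases before the start, and Bnip3 held 5, with its palindrome 108 bases before the start.

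Of the 34 measured genes, 32 entered the test, which needs a mean log2 signal above the 40th percentile of all probe sets, or a signal of about 56.9. Carbonic anhydrase 9 (Car9), a cell-surface enzyme and a classic marker of hypoxic tissue, lay below that level, at 20.8 to 61.1 in wild-type and 14.7 to 66.1 in knock-out brains. Gapdh was carried only by the array's control probe sets, which were left out of the test and are given apart. Gpi1, Eno1 and Bnip3l had no probe set annotated to them alone. Ero1l is listed by its later symbol Ero1a in the annotation.

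None of the 32 tested genes differed between genotypes after adjustment over all 12920 genes tested (limma, Benjamini-Hochberg, threshold 0.05), beside 0.0232% of all genes (3 genes). All 32 adjusted p were 1.00. At an unadjusted p under 0.05, 3 of 32 (9.38%) were higher in knock-out brains (Ldha, Pfkfb3 and Ankrd37) and 0 were lower, beside 1.72% and 0.255% of all genes. This count was not stable: it was 0 with a common trimmed mean (0.89% of all genes), 0 with each array centred on its own median (0.17%) and 1, Ldha, after quantile normalization (0.379%). With 1 array left out, the count in either direction ran from 0 (without knock-out 5 or without knock-out 6) to 4 (without knock-out 7). The share of all genes was not computed for these array sets. The mean was higher in knock-out brains for 29 of 32 genes (90.6%) and lower for Ldhb, Higd1a and Fam162a, where 65.5% of all genes had a higher knock-out mean. The median difference (knock-out minus wild-type, on the scale of log2(signal + 16)) was 0.10 over the 32 genes and 0.04 over all genes. It was 0.09 over the 15 glycolytic enzymes, of which 14 had a higher knock-out mean, and 0.12 over the 14 other targets, of which 12 did. The sign of these small medians depends on the scaling of the arrays. With each array centred on its own median, the median of all genes moved from 0.04 to -0.15 and that of the listed genes to -0.09, and 9 of 32 had a higher knock-out mean, beside 12.3% of all genes. That count was 22 with a common trimmed mean (46.8% of all genes) and 25 after quantile normalization (39%). The signs given for single genes and roles are those of the deposited scale. Relative to the median of all genes, 24 of 32 lay above it with the deposited values and 27 after quantile normalization. It was 18 without wild-type 2, 19 without litter 250 and 20 with the Actb 3′ to 5′ ratio, a measure of RNA length, as a covariate.

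**Figure D1:**
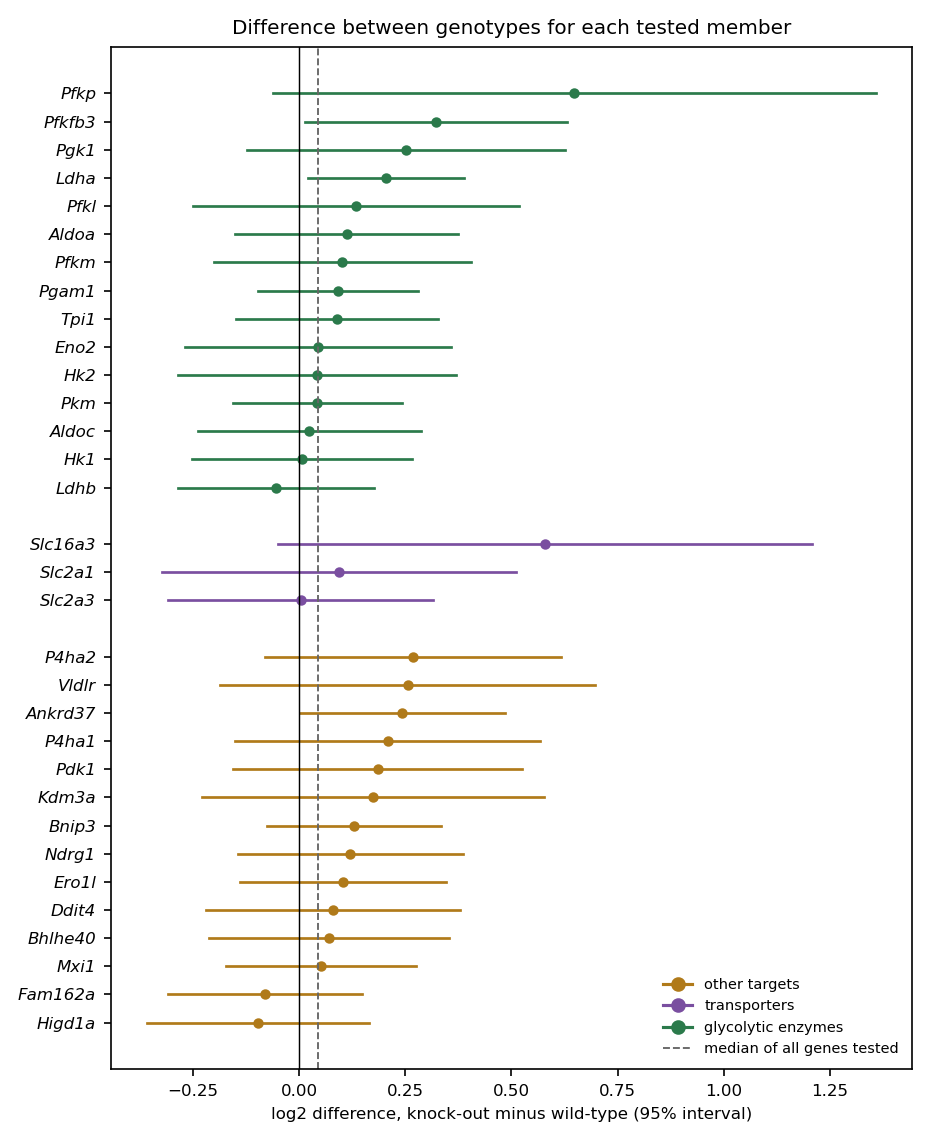
Log2 difference between Meg3 knock-out and wild-type brains for each of the 32 tested genes (points) with its 95% interval (lines), grouped as glycolytic enzymes, transporters and other targets; the dashed line is the median of all genes tested, 0.04. On the deposited scale the points for 29 genes lie above 0 (9 with median centring), and the intervals of Ldha, Pfkfb3 and Ankrd37 alone lie wholly above 0.

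The 3 transporters had knock-out means at or above the wild-type means, and none passed the test. Slc2a1 encodes GLUT1, the glucose transporter of the blood-brain barrier and of glia. Its signal had a lowest, median and highest value of 1458, 2341 and 2687 in wild-type and 1321, 2535 and 3465 in knock-out brains, with a log2 difference of 0.09 ± 0.20 (SE; 95% interval -0.32 to 0.51). The ranges overlapped, and the lowest value of each genotype came from litter 262. Slc2a3 encodes GLUT3, the main neuronal glucose transporter, and its difference was 0.00 ± 0.15 (SE). Slc16a3, which encodes the lactate exporter MCT4, was weak, at 11.3, 71.9 and 108 in wild-type and 65.8, 96.7 and 157 in knock-out brains. Its difference was 0.58 ± 0.30 (SE; 95% interval -0.05 to 1.21; exact permutation p = 0.0892, two-sided). The low end rested on wild-type 2, at 11.3 against 60.2 to 157 on the other 12 arrays, and without that array the difference was 0.28.

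All 9 tested enzymes of the first steps of glycolysis, from hexokinase to triosephosphate isomerase, had a higher knock-out mean, with a median of 0.10, and 0 passed the test. Without wild-type 2 alone this held for 5 of 9 with a median of 0.02, as Hk1 (-0.06), Pfkl (-0.04), Pfkm (-0.04) and Aldoc (-0.03) changed sign and Aldoa and Tpi1 were at 0.02. Hk1, the constitutive hexokinase of brain, had values of 3610, 4667 and 5271 in wild-type and 3652, 4664 and 5287 in knock-out brains, a difference of 0.01 ± 0.12 (SE). Hk2, the inducible hexokinase, was at 153, 230 and 256 in wild-type and 137, 240 and 266 in knock-out brains, a difference of 0.04 ± 0.15 (SE). For both hexokinases the ranges of the genotypes nearly coincided.

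Pfkfb3 makes fructose 2,6-bisphosphate, the strongest activator of phosphofructokinase. Its signal was 530, 677 and 903 in wild-type and 732, 830 and 1152 in knock-out brains, a difference of 0.32 ± 0.15 (SE; 95% interval 0.01 to 0.63). All 7 knock-out values lay above the wild-type median, but only 2 lay above every wild-type value, and the ranges overlapped (exact permutation p = 0.0583, two-sided). The 3 lowest of all 13 values were wild-type 1, 2 and 3, at 570, 530 and 583. Litter by litter, the Pfkfb3 difference was 0.47 (219), 0.37 (238), 0.09 (250) and 0.04 (262).

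Among the 3 phosphofructokinase subunits, which catalyse the committed step, Pfkp had the largest SD of log2(signal + 16) over the 13 arrays among the tested genes, 0.74. Its values were 652, 1430 and 2229 in wild-type and 800, 2101 and 3283 in knock-out brains, and the highest of the 13 values was 5.03 times the lowest. The difference was 0.65 ± 0.33 (SE; 95% interval -0.06 to 1.36; exact permutation p = 0.117, two-sided). The lowest value, 652, was that of wild-type 1 and the second lowest, 800, that of knock-out 4 in litter 238. The Pfkp difference was 0.44 without wild-type 1, 0.36 without wild-type 1 and wild-type 2, and 0.99 without litter 238. Pfkl differed by 0.13 ± 0.18 and Pfkm by 0.10 ± 0.14 (SE), both of which changed sign without wild-type 2.

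Of the aldolases, Aldoa, the general form, was at 5364, 7649 and 8640 in wild-type and 6527, 8362 and 8773 in knock-out brains, a difference of 0.11 ± 0.12 (SE). Aldoc, the brain form found in astrocytes, was at 4506, 5655 and 6643 in wild-type and 4885, 5512 and 6949 in knock-out brains, a difference of 0.02 ± 0.12 (SE). The ranges of both overlapped almost fully. Triosephosphate isomerase (Tpi1) differed by 0.09 ± 0.11 (SE).

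**Figure D2:**
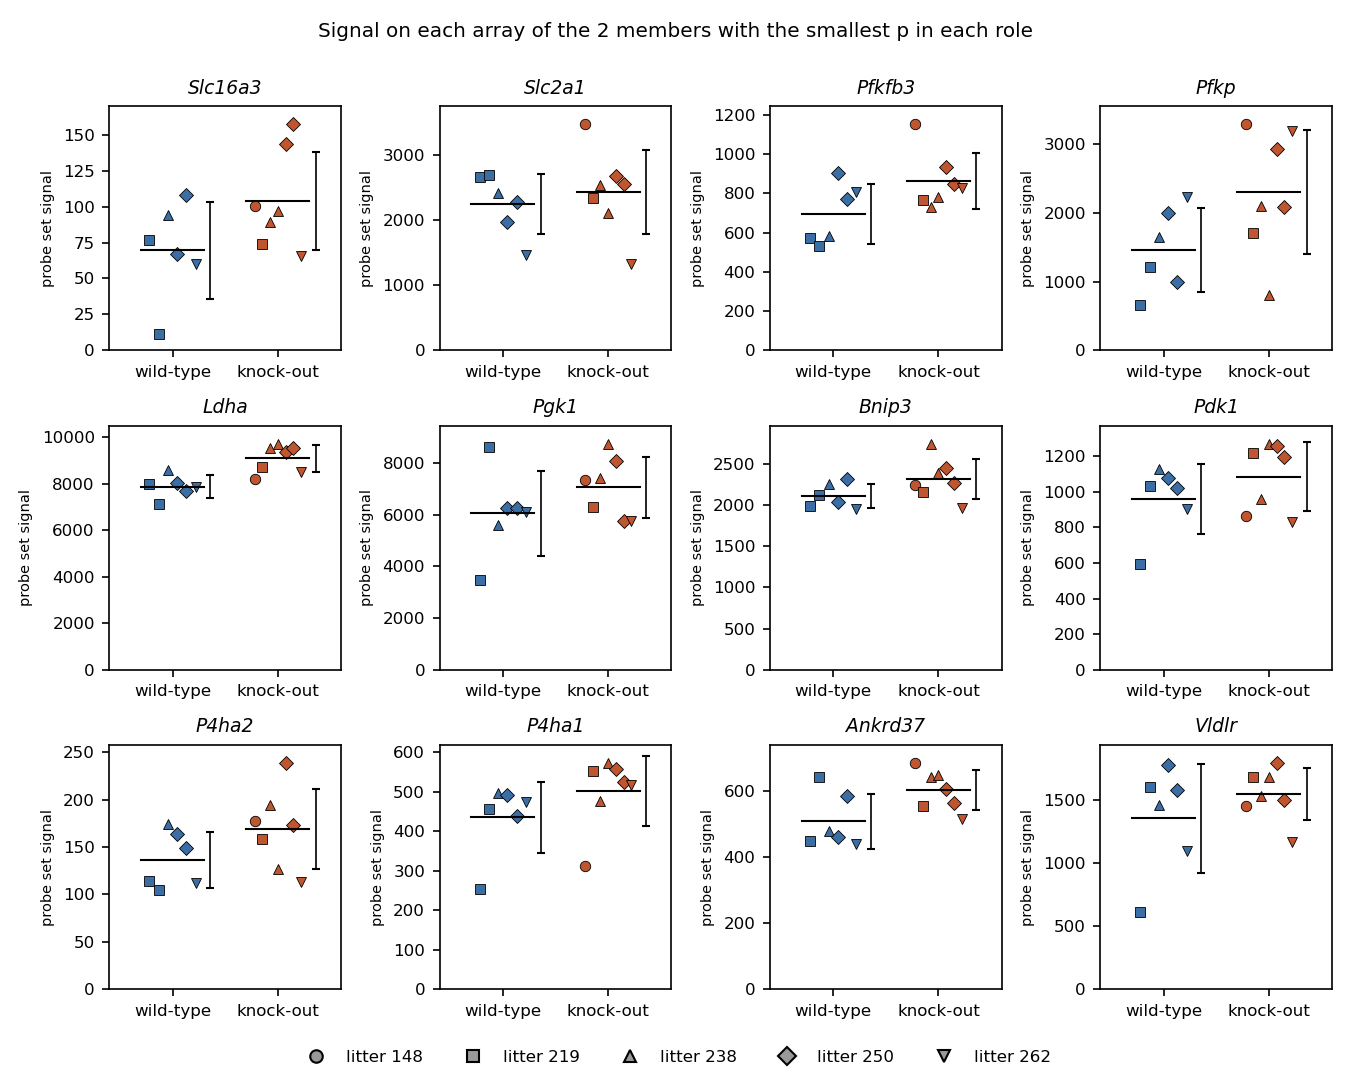
Deposited probe set signal (linear, from 0) on each array for the 2 genes with the smallest p in each of 6 roles; wild-type blue, Meg3 knock-out orange, symbols for litters, horizontal line the mean and side bar ± 1 SD (n = 6 and 7). For Ldha 5 of 7 knock-out values lie above every wild-type value, while for Slc16a3, Pdk1 and P4ha1 a single low wild-type array of litter 219 stands apart from the other wild-type arrays by Dixon's rule on the log2 scale.

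Of the enzymes from Pgk1 to the lactate dehydrogenases, 5 of 6 tested had a higher knock-out mean, with a median of 0.07, and 0 passed the test. Without wild-type 2 it was 3 of 6, with a median of 0.02. Ldha encodes the lactate dehydrogenase subunit that favours turning pyruvate into lactate. Its signal was 7118, 7927 and 8586 in wild-type and 8197, 9366 and 9722 in knock-out brains, with means of 7877 ± 478 (SD, n = 6) and 9082 ± 596 (SD, n = 7). Of the 7 knock-out values 5 lay above every wild-type value, and of the 6 wild-type values 5 lay below every knock-out value.

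The Ldha difference was 0.20 ± 0.09 (SE; 95% interval 0.02 to 0.39), which is 1.15-fold. In the exact permutation test over all 1716 ways of splitting the arrays, two-sided, p was 0.0035, not adjusted for the number of genes. These splits ignore litter. The two-sided limma p of Ldha was 0.0306 before adjustment, and Ldha did not pass after adjustment over all genes tested. The difference had the same sign in each litter with both genotypes, at 0.21 (litter 219), 0.16 (238), 0.27 (250) and 0.11 (262). It was 0.15 with a common trimmed mean and 0.20 after quantile normalization, but 0.01 with median centring, where the median of all genes was -0.15. Ldhb, the subunit that favours the reverse reaction, had values of 3276, 4244 and 5017 in wild-type and 3558, 4169 and 4357 in knock-out brains, a difference of -0.05 ± 0.11 (SE). The knock-out values of Ldhb lay inside the wild-type range.

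Phosphoglycerate kinase (Pgk1), the first enzyme of glycolysis to make ATP, was at 3468, 6174 and 8616 in wild-type and 5736, 7323 and 8740 in knock-out brains, a difference of 0.25 ± 0.18 (SE; 95% interval -0.12 to 0.63). The lowest and the highest wild-type values of Pgk1 came from the littermates wild-type 1 and wild-type 2, and the difference was 0.10 without the former and 0.36 without the latter. Neuronal enolase (Eno2) was at 1696, 2358 and 2849 in wild-type and 1846, 2436 and 2793 in knock-out brains, a difference of 0.04 ± 0.15 (SE). Its isozyme Eno1 had no probe set of its own, so the pair could not be compared. Phosphoglycerate mutase (Pgam1) differed by 0.09 ± 0.09 (SE) and pyruvate kinase (Pkm) by 0.04 ± 0.09 (SE).

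Gapdh, the enzyme between the triose and payoff steps, was read by 3 control probe sets along its transcript. The probe set at the 3′ end ranged from 12715 to 18256 in wild-type and from 14892 to 17758 in knock-out brains, a log2 difference of 0.03 ± 0.12 (SE). The middle probe set differed by 0.09 ± 0.18 and the 5′ probe set by 0.23 ± 0.25 (SE), and without wild-type 2 the 3 differences were -0.03, -0.09 and -0.05. The ratio of the 3′ to the 5′ signal of Gapdh, which rises as RNA is shortened, was 1.91 on wild-type 2 and 0.914 on knock-out 1, against 0.689 to 0.855 on the other 11 arrays. The same ratio for Actb was also highest on these arrays, at 2.92 and 1.81, and was 1.32 on the lowest array.

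Of 4 tested targets that act on mitochondria, Pdk1 and Bnip3 had a higher and Higd1a and Fam162a a lower knock-out mean, and 0 passed the test. Pdk1 encodes the kinase that shuts off pyruvate dehydrogenase and so keeps pyruvate out of mitochondria. It was at 592, 1027 and 1130 in wild-type and 831, 1194 and 1271 in knock-out brains, a difference of 0.18 ± 0.16 (SE), which was 0.05 without wild-type 1. Bnip3, a receptor for the removal of mitochondria by autophagy, was at 1950, 2077 and 2315 in wild-type and 1960, 2265 and 2744 in knock-out brains. The Bnip3 difference was 0.13 ± 0.10 (SE; 95% interval -0.08 to 0.33), with 3 of 7 knock-out values above every wild-type value. Higd1a, a small protein of the respiratory chain, differed by -0.10 ± 0.12, and Fam162a, a mitochondrial protein of the hypoxic response, by -0.08 ± 0.11 (SE).

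The 4 tested enzymes outside glycolysis all had a higher knock-out mean, with a median of 0.19 (0.05 without wild-type 1), and 0 passed the test. P4ha1 and P4ha2 encode the catalytic subunits of collagen prolyl 4-hydroxylase. P4ha1 was at 254, 465 and 496 in wild-type and 312, 524 and 573 in knock-out brains, a difference of 0.21 ± 0.17 (SE), and 5 of 7 knock-out values lay above every wild-type value. Its low end rested on wild-type 1 and knock-out 1, and without wild-type 1 the difference was 0.07. P4ha2 was at 105, 132 and 174 in wild-type and 113, 173 and 239 in knock-out brains, a difference of 0.27 ± 0.16 (SE; 95% interval -0.08 to 0.62). Ero1l, which feeds oxidising equivalents into disulphide formation in the endoplasmic reticulum, differed by 0.10 ± 0.11 (SE). Kdm3a, a histone H3 lysine demethylase, differed by 0.17 ± 0.19 (SE). Without wild-type 1, which held 611 against 1179 to 1816 on the other 12 arrays, the Kdm3a difference was -0.03.

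All 6 tested regulators and other targets had a higher knock-out mean, with a median of 0.10, and 0 passed the test. Ankrd37, a small ankyrin repeat protein and a direct HIF-1 target, was at 442, 470 and 643 in wild-type and 515, 608 and 686 in knock-out brains. The difference was 0.24 ± 0.11 (SE; 95% interval 0.00 to 0.48). The exact permutation p was 0.0373, two-sided and not adjusted for the number of genes. Of the 7 knock-out values 3 lay above every wild-type value, and 4 of 6 wild-type values lay below every knock-out value. The highest wild-type value, 643, came from wild-type 2. The Ankrd37 difference was 0.05 in litter 219, 0.42 in 238, 0.16 in 250 and 0.22 in 262.

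Vldlr, a lipoprotein receptor that in brain receives the Reelin signal for neuron placement, was at 609, 1516 and 1770 in wild-type and 1162, 1528 and 1789 in knock-out brains. Its difference was 0.26 ± 0.21 (SE; 95% interval -0.19 to 0.70), and 0.05 without wild-type 1, the array at 609. Ndrg1, a stress-induced protein of myelinating and other cells, differed by 0.12 ± 0.12, and Ddit4, the inhibitor of mTORC1 also called REDD1, by 0.08 ± 0.14 (SE). The transcriptional repressor Bhlhe40 differed by 0.07 ± 0.13 and the MYC antagonist Mxi1 by 0.05 ± 0.10 (SE).

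In none of the 32 genes did the 2 genotypes separate without overlap, beside 0.0774% of all genes (10 genes). A higher knock-out mean in each of the 4 litters that held both genotypes was found for 6 of 32 genes (18.8%), namely Pfkfb3, Ldha, Bnip3, P4ha1, Ankrd37 and Ndrg1, beside 8.03% of all genes. The litters did not share 1 direction over the list. The median difference of the 32 genes was 0.18 in litter 219 and 0.15 in litter 250, where 25 and 30 of 32 were higher in the knock-out. It was -0.03 in litter 238 and -0.06 in litter 262, where 13 and 12 were higher. The medians of all genes in those litters were 0.16, 0.03, -0.04 and -0.03 in the order 219, 250, 238 and 262. The genotype-by-litter term, tested with limma on the 12 arrays of these litters, passed for 0 of 32 genes and for 0% of all genes, and at an unadjusted p under 0.05 for 0 of 32 and 1.39% of all genes. Without litter 262, wild-type 2 and knock-out 1 it passed for 2 of 32, Kdm3a and Vldlr, beside 4.88% of all genes. In the 9 arrays left, both were low on wild-type 1 alone, at 611 and 609.

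A few arrays stood apart, which was noticed after the values were seen. The littermates wild-type 1 and wild-type 2 held the lowest of the 13 values for 20 of 32 genes (62.5%), beside 48.6% of all genes, but for different genes. Wild-type 2 held it for 12 of 32 (37.5%), beside 23.6% of all genes. Wild-type 1 held it for 8 of 32 (25%), the same share as over all genes (25%). On wild-type 2 the lowest value was found for 10 of 15 glycolytic enzymes (66.7%) and for 1 of 14 other targets (7.14%), beside 23.6% of all genes. The enzymes were Hk1, Pfkl, Pfkm, Pfkfb3, Aldoa, Tpi1, Pgam1, Eno2, Pkm and Ldha. On wild-type 1 it was found for 3 of 15 enzymes and for 5 of 14 other targets (Pdk1, P4ha1, Ero1l, Kdm3a and Vldlr), beside 25% of all genes. The median deviation of the glycolytic enzymes from their mean over 13 arrays was -0.31 on wild-type 2 and 0.10 on wild-type 1. That of the other targets was 0.01 on wild-type 2 and -0.22 on wild-type 1. Wild-type 2 is the array with the highest 3′ to 5′ ratios. With the Actb ratio as covariate the median genotype difference was 0.03 over the enzymes, as over all genes, and 0.15 over the other targets. In that fit 23 of 32 genes had a higher knock-out mean. The Actb ratio was 2.92 on wild-type 2, and the next highest was 1.81 on knock-out 1. This covariate thus follows mostly wild-type 2 and cannot separate RNA length from other features of that array. Whether RNA length had a part in the enzyme difference was not tested. Without wild-type 2 the median genotype difference of the glycolytic enzymes was 0.02 in place of 0.09, that of the other targets 0.14, and 22 of 32 genes had a higher knock-out mean. Without wild-type 1 the medians were 0.11 for the enzymes and 0.06 for the other targets.

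**Figure D3:**
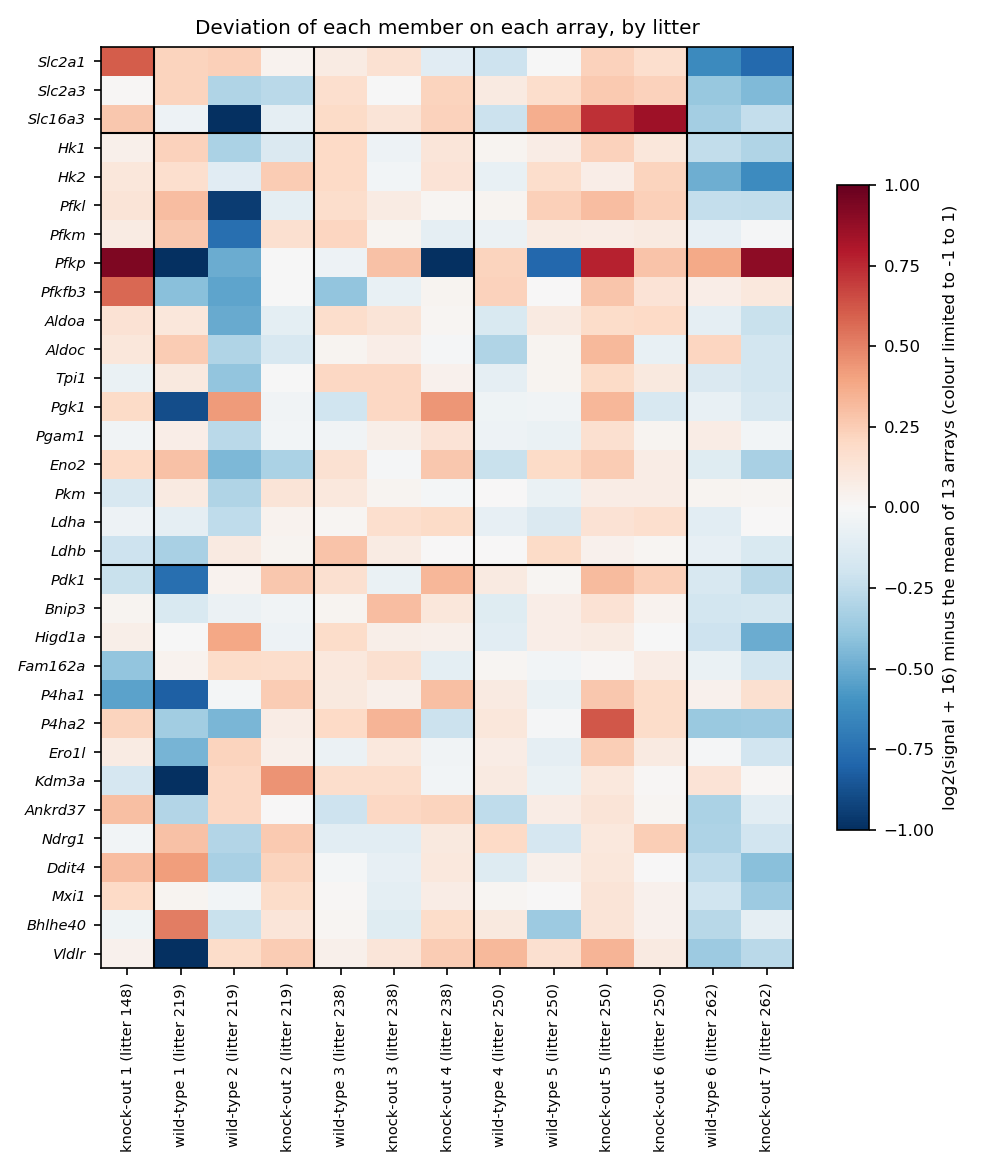
Deviation of log2(signal + 16) from the mean of the 13 arrays for each tested gene (rows) on each array (columns, ordered by litter), red above and blue below the mean, with colours limited to -1 and 1. Wild-type 2 is blue for most glycolytic enzymes, wild-type 1 for several of the other targets, and both arrays of litter 262 for Slc2a1, Slc2a3 and Hk2.

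In the limma F test between the 5 litters with genotype in the model, 0 of 32 genes passed at an adjusted p of 0.05, beside 0.0387% of all genes. At an unadjusted p under 0.05 there were 4 (12.5%), namely Slc2a1, Slc2a3, Hk2 and Pfkfb3, beside 14.9% of all genes. Slc2a1 came nearest, with an adjusted p of 0.127 in limma. This count depended on the arrays of litter 219. Without that litter Slc2a1 (adjusted p = 0.0263), Hk2 (0.0361), Slc2a3 (0.0363) and P4ha1 (0.0484) passed, but so did 10.5% of all genes (1359 genes). Without wild-type 1, Slc2a1 (0.0422) and Slc2a3 (0.0458) passed, beside 4.2% of all genes, and without both wild-type 1 and wild-type 2 the same pair and Hk2 (0.047) passed, beside 7.46%.

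The low values of the glucose transporters and Hk2 came from litter 262. Slc2a1 was at 1458 and 1321 on its wild-type and knock-out arrays, against 1971 to 3465 on the other 11 arrays. Slc2a3 was at 2576 and 2457, against 2720 to 4009. Hk2 was at 153 and 137, against 202 to 266. Both arrays of litter 262 were the lowest 2 of 13 for these genes and for Bnip3, Higd1a and Mxi1, thus for 6 of 32 genes (18.8%), beside 9.71% of all genes, and the highest 2 for 0 of 32, beside 2.89%. Among the knock-out arrays alone, knock-out 7 of this litter was the lowest for 21 of 32 genes (65.6%), beside 31.9% of all genes.

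Summed marker signals of several cell types, though not of all, moved with these arrays. The summed signal of 8 endothelial markers was 3401 and 3333 in litter 262, against 3706 to 5204 on the other 11 arrays. The sum of 6 meningeal markers was 5458 and 4187, against 8208 to 16869, and that of 6 microglial markers 2181 and 2225, against 2552 to 3941. The sum of 8 neuronal markers was higher there, at 93430 and 94459, against 70103 to 85265. Red cell markers, of which 2 of the 5 measured lay above the filter, summed to 279 and 350, against 360 to 1873. The sums add linear signals, so strong markers weigh most. In wild-type means, Alas2 held 658 of the red cell sum of 805. Ttr held 27043 of 29592 for choroid plexus, and Fabp7 19221 of 25494 for astrocytes and radial glia. The strongest neuronal marker, Stmn2, held 17698 of 79637. Pericyte markers summed to 4271 and 4189 in litter 262, inside the 3724 to 5847 of the other 11 arrays. The sums for the oligodendrocyte lineage, choroid plexus and cycling cells also lay inside the range of those 11 arrays. That of neural progenitors lay below it on knock-out 7 alone, and that of astrocytes and radial glia above it on wild-type 6 alone. The part of any of these cell types in the low signals of Slc2a1, Slc2a3 and Hk2 was not tested. Between genotypes the sums overlapped, with neuronal markers at 70103 to 93430 in wild-type and 74838 to 94459 in knock-out brains and endothelial markers at 3401 to 5141 and 3333 to 5204. Choroid plexus markers summed to 22617 to 37125 in wild-type and 8860 to 31150 in knock-out brains, and 4 of 5 tested had a lower knock-out mean, with a median of -0.51. Of 7 tested markers of cycling cells 6 had a lower knock-out mean, with a median of -0.14, and 0 markers of either list passed the test. The part of either in the genotype differences was not tested. The 8 neuronal markers were all above the filter.

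Altogether 75 probe sets were annotated to the measured genes, leaving out the Gapdh controls, and 71 lay above the filter. Of these 62 had a higher knock-out mean, where 72.5% of all 27022 probe sets above the filter did. In a fit of all 45037 probe sets without a filter, 0 of the 75 passed the test. In a separate fit of the 27022 above the filter, 17 of all passed and 0 of the 32 used for the listed genes. Of 18 genes with more than 1 probe set above the filter, Aldoa, Aldoc, Pgk1 and Higd1a had probe sets of both signs. The Pgk1 probe sets ranged from -0.10 to 0.25, those of Aldoc from -0.22 to 0.02, and those of Pfkp from 0.03 to 0.71. All 4 probe sets of Ldhb had a lower knock-out mean (-0.11 to -0.01), and all 5 of Ndrg1 a higher one (0.11 to 0.16). Ldha, Bnip3 and Ankrd37 were read by 1 probe set each. The probe sets used for Aldoa, Pgk1 and Vldlr, and those for Slc2a3 and Ndrg1, are of classes whose probes can match other transcripts. Several glycolytic enzymes also have near-identical processed copies in the genome, so part of a signal could come from a copy.

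**Figure D4:**
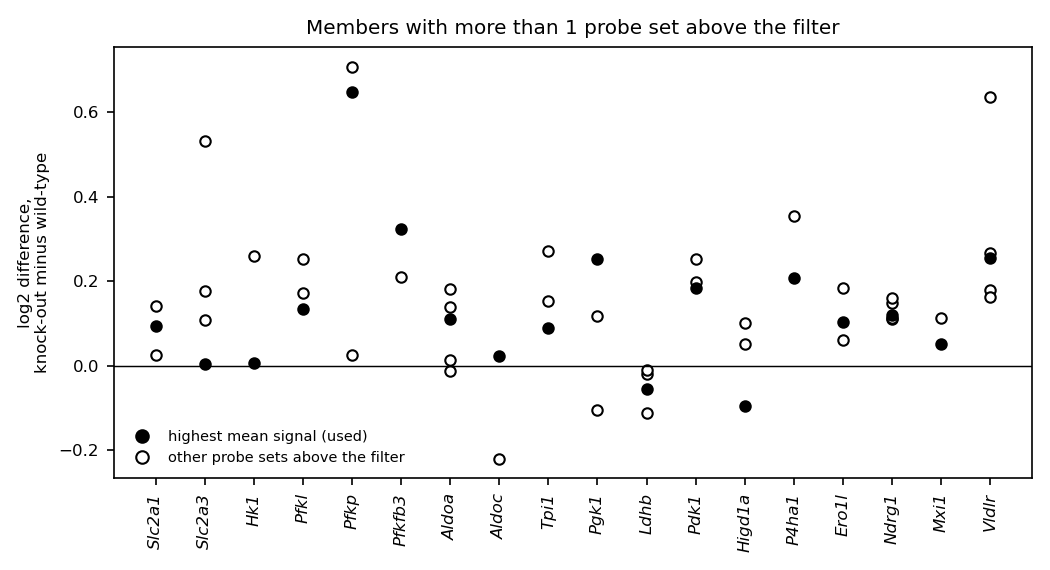
Log2 difference between Meg3 knock-out and wild-type for every probe set above the filter of the 18 genes with more than 1 (filled, the probe set used; open, the others). Most points lie above 0, all 4 of Ldhb lie below it, and those of Pgk1, Aldoa, Aldoc and Higd1a lie on both sides.

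In litter 262 the probe sets of 1 gene went opposite ways. For Slc2a3 the probe set used was lowest there, at 2576 and 2457, while 2 weaker probe sets were highest there. One of these was at 461 and 505, against 3.31 to 332 on the other 11 arrays, and the other at 349 and 291, against 36.8 to 202. A weaker Mxi1 probe set was at 727 and 713, against 158 to 574, although the one used was lowest in this litter. Over the 39 probe sets above the filter that were not used, both arrays of litter 262 were the highest 2 for 9 (23.1%) and the lowest 2 for 3 (7.69%), beside 20.2% and 4.59% of the 10531 such probe sets of all genes. The weak Slc2a3 probe set that was highest in litter 262 had its lowest values, 3.31 and 38.4, on wild-type 2 and knock-out 1. Those are the arrays with the highest 3′ to 5′ ratios of Gapdh, and litter 262 had the lowest, 0.718 and 0.689. The part of RNA length in these opposite patterns was not tested. At least 1 weaker probe set was highest in litter 262 also for Ero1l, P4ha1, Pfkp and Pfkfb3.

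**Figure D5:**
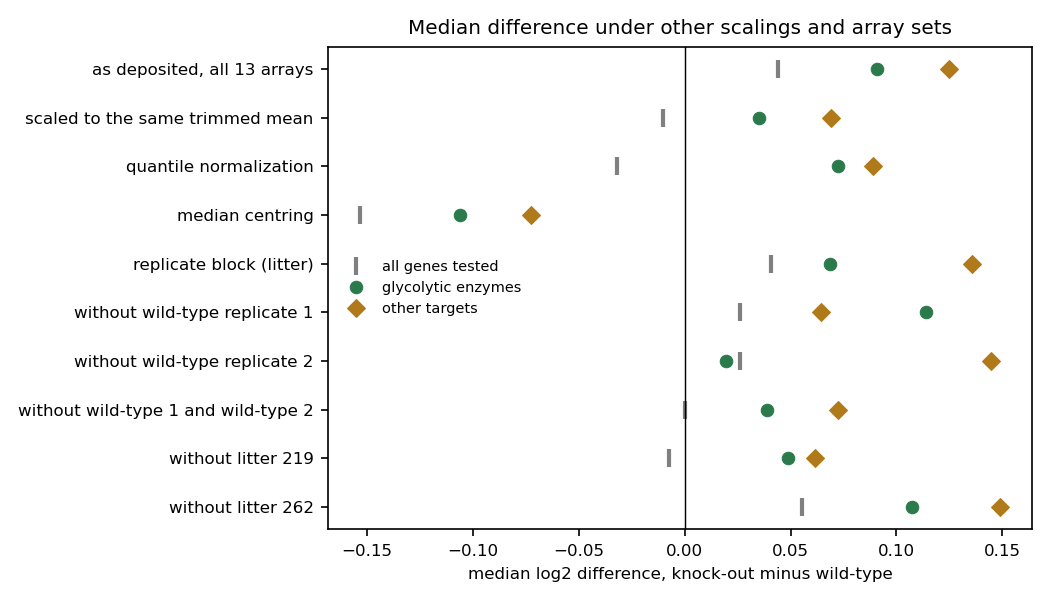
Median log2 difference, Meg3 knock-out minus wild-type, over all genes tested (grey bars), the glycolytic enzymes (circles) and the other targets (diamonds) under the deposited scale, other scalings, a litter block and without named arrays. In the settings plotted, both lists lie to the right of all genes except the glycolytic enzymes without wild-type 2 (0.02 beside 0.03), as also, not plotted, with the Actb covariate and in both further array sets without wild-type 2 and knock-out 1, and with median centring every median lies below 0.

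Of 27 tested genes among 36 further genes of glycolysis and pyruvate handling, 15 had a higher and 12 a lower knock-out mean. Over all genes tested, 65.5% had a higher one. The median of the 27 was 0.02, 11 of them lay above the median of all genes (0.04), and 0 passed the test. The smallest p were those of the insulin-responsive glucose transporter Slc2a4, with a difference of -0.32 ± 0.16, and of the pyruvate dehydrogenase kinase Pdk4, at -0.27 ± 0.14 (SE). Of 35 tested among 39 further low-oxygen induced genes, 26 had a higher and 9 a lower knock-out mean, beside the same 65.5% of all genes. The median of the 35 was 0.06, 19 of them lay above the median of all genes, and 0 passed the test. The smallest p were those of the angiogenic growth factor Vegfa, with a difference of 0.42 ± 0.12, and of the vasodilator peptide adrenomedullin (Adm), at 0.30 ± 0.12 (SE). The Meg3 signal itself was 3109 to 6251 in wild-type and 264 to 589 in knock-out brains, without overlap.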

How the data were processed

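Biotinylated cRNA was made from 5 µg of RNA of each brain, per the labels' protocols. The authors deposited 1 intensity on a linear scale for each probe set and array. How these were summarised and scaled, and with which software, is not given in the sources used here. For the listed genes, the values of wild-type 6 carry at most 1 decimal, unlike those of the other arrays. Whether that array was processed apart is not stated. The number of arrays limits the precision. Of 45101 probe sets, 64 Affymetrix controls were left out. Of the rest, 34945 carried 1 gene symbol, 932 several and 9160 none.

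The intensities were turned into log2(signal + 16), which understates fold changes of weak genes. Probe sets with a mean above the 40th percentile were kept, and the one with the highest mean stood for each gene, which left 12920 genes. Genotypes were compared by a two-sided moderated test (limma 3.58.1, R 4.3.3) over all 13 arrays without a litter term, and p-values were adjusted by Benjamini-Hochberg over all genes tested. Litters, read from the embryo labels, were compared with F tests. The tests were checked on simulated data with 200 changed genes, made with residuals shuffled between arrays regardless of litter. For genotype, recovery was required only for changes larger than any seen among the listed genes. The check thus does not speak to differences of the sizes seen here. The listed genes, roles, further pathway genes and cell markers were chosen with earlier results of these data known. Values over each genotype are given for the isozyme pairs and for the 2 genes with the smallest p in each role. Littermates pair the samples by the labels, and their residuals correlated at -0.11 to 0.58 over 9 wild-type and knock-out pairs. Promoters were read from RefSeq (GRCm38.p6), with the first window listed for a gene. Other scalings, filters, probe set choices, blocks and array sets were tried, 36 in all.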

Additional observations from a re-analysis of the deposited data

Results flagged for a closer look

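Within each genotype, a value was singled out where its gap to the nearest other array, divided by the whole range of the group on the log2(signal + 16) scale, passed Dixon's 95% critical value. Of 64 groups (32 genes in 2 genotypes), 9 held such an array (14.1%). Chance alone gives about 1 in 20, but over all genes tested 14.2% of such groups did, so the share among these genes is near that background. Each of the 9 was the lowest of its group, as were 87.9% of those over all genes.

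On wild-type 1, Kdm3a was at 611 against 1269 to 1534 on the other wild-type arrays (ratio 0.793), P4ha1 at 254 against 439 to 496 (0.816), and Pdk1 at 592 against 902 to 1130 (0.649). On its littermate wild-type 2, Pfkm was at 1306 against 2093 to 2668 (0.659) and Slc16a3 at 11.3 against 60.2 to 108 (0.678). In litter 262, Mxi1 was at 1523 on wild-type 6 against 1718 to 1778 (0.776), and on knock-out 7 Hk2 was at 137 against 216 to 266 (0.68) and Higd1a at 2024 against 2757 to 3023 (0.77). On knock-out 1, P4ha1 was at 312 against 477 to 573 on the other knock-out arrays (0.695).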

How the results depend on the processing

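In all 36 alternatives, 34 planned and 2 added after the data were seen, 0 of the tested genes passed for genotype, and the lowest adjusted p was 0.636, with median centring. Median centring also turned the list medians, to -0.094 over the tested genes, -0.11 over the glycolytic enzymes and -0.072 over the other targets, with 9 genes higher in knock-out. Leaving out 1 array at a time gave a median of 0.05 to 0.16 over the tested genes, 0.02 to 0.14 over the enzymes, 0.06 to 0.16 over the other targets and -0.02 to 0.23 over the transporters, with 22 to 29 genes higher in knock-out. The count of genes past the litter test was 0 to 2 when 1 array was left out (2 without wild-type 1), 4 without litter 219, and 3 without wild-type 1 and wild-type 2, an alternative added after the data were seen. The genotype-by-litter count was 2 (Kdm3a at an adjusted p of 0.0384 and Vldlr at 0.0462, beside 4.88% of all genes) without litter 262, wild-type 2 and knock-out 1, also added. That set leaves 9 arrays, and the cause was not tested in any of these cases.

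With the Actb ratio as a covariate, 23 genes were higher in knock-out and the median over the enzymes was 0.03. With litter as a replicate block, the pairing that the labels give, 25 of the tested genes were higher in knock-out, the medians were 0.08 over all of them, 0.07 over the enzymes and 0.14 over the other targets, and no call changed. With the title numbers as a replicate block, which drops knock-out 7, the median was 0.16 and 29 genes were higher. Residuals of same-numbered arrays correlated at -0.26 to 0.40 over 6 pairs, with 3 over 0.1, beside 5 of 9 littermate pairs. The same-numbered pairs 2, 3 and 5 are also littermates.

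Ankrd37, Ldha, P4ha1, P4ha2, Pfkfb3, Pfkp, Pgk1, Slc16a3 and Vldlr kept a higher knock-out mean, and Ldhb a lower one, in every alternative that tested them, whereas Hk1 and Slc2a3 changed sign in 16 of 36. P4ha2 and Slc16a3 were not tested with the filter at the 60th percentile. The litter and genotype-by-litter tests were not run with the blocks, with the Actb ratio as a covariate or with ordinary least squares. Weak signals such as those of Car9 and Slc16a3 are limited by their nearness to background.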
